A study of Danio rerio with 30 samples.

Results

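Zebrafish carry a pair of *Tbx5* genes, *tbx5a* and *tbx5b*, which encode T-box transcription factors needed for the heart and the pectoral fin. The embryos described here were deficient in both at 18 hpf (hours post fertilization), when somites are still being added, heart progenitors lie in the lateral plate mesoderm and the fin buds have not yet formed. Double-deficient embryos were of the *AB strain and were injected at the one-cell stage with morpholinos against both genes. Morpholinos are antisense oligonucleotides that block translation or splicing of a chosen transcript. Wildtype embryos were *AB embryos of the same stage, and whether they received a control injection is not given in the sources used here. Each group had 3 libraries, 6 in all, each made from a pool of 10 embryos after removal of the eyes. The rest of the triplicate experiment, the Tbx5a-deficient and Tbx5b-deficient groups at 18 hpf and all 4 groups at 21 hpf, is used only where a value at 18 hpf is set beside it.

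Polyadenylated RNA was measured by sequencing of oligo dT cDNA. Each gene has 1 FPKM value in each group (mapped fragments scaled to transcript length and library size), which Cuffdiff computed from the 3 libraries together, with a lower and an upper bound. The level of the bounds is not stated with the values, the depth of the single libraries is unknown, and no SD or test over libraries could be made. Members were taken as the genes with usable values in both groups, at least 1 FPKM in either and a locus of at least 300 bp, with loci of microRNAs and other RNAs that are not messengers left out. These were 10517 of the 14648 genes listed. The log2 ratio of double-deficient over wildtype embryos was taken after adding 1 FPKM to both values, which makes the ratio of low genes smaller. A gene was counted as changed when this ratio reached 1 in either direction, called 2-fold below, and the intervals between the bounds lay apart. Every statement that a gene was past 2-fold or 1.5-fold refers to this ratio with 1 FPKM added.

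No gene was counted as changed between double-deficient and wildtype embryos at 18 hpf. The count was 0 of 10517, or 0%, and no pair of bounds was apart. Whatever the bounds, 2 genes (0.019%) had a value at least 2-fold higher and 10 genes (0.0951%) a value at least 2-fold lower in double-deficient embryos. On the FPKM values themselves, with nothing added, 21 genes were at least 2-fold higher and 46 at least 2-fold lower. At 1.5-fold, 60 genes (0.571%) were higher and 74 genes (0.704%) were lower, and 98.7% of genes lay within 1.5-fold. The median log2 ratio was -0.03 (SD across genes 0.23), with the 1st percentile at -0.53 and the 99th at 0.52. The plot of ratio against level shows how narrow this spread was.

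**Figure D1:**
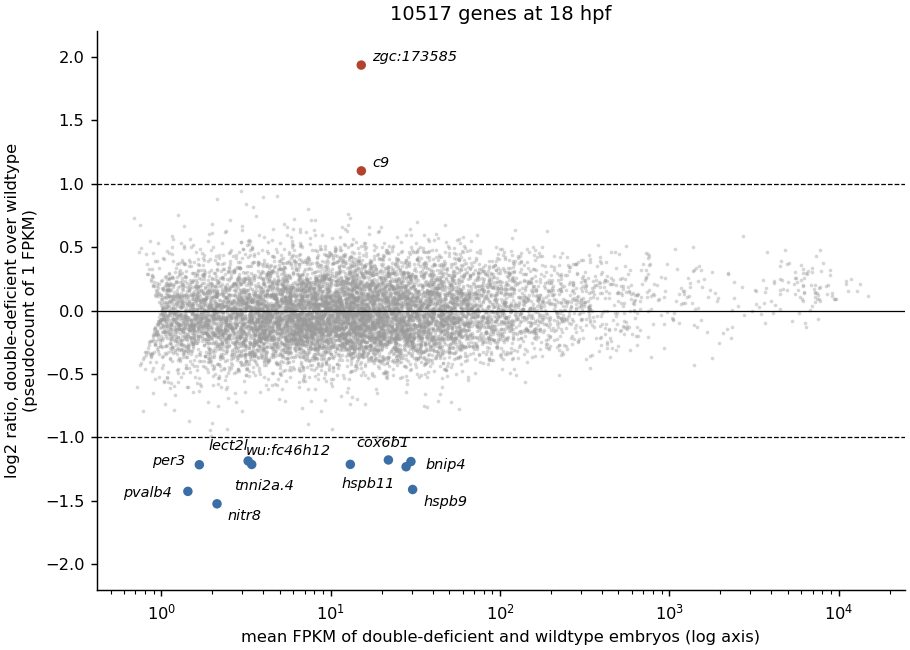
Log2 ratio of double-deficient over wildtype embryos at 18 hpf (vertical axis, pseudocount of 1 FPKM) against the mean FPKM of both groups (horizontal log axis), 1 point per gene for 10517 genes. Dashed lines mark 2-fold, and the 2 genes above and 10 genes below them are named.

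The bounds decide how much of this could be seen. Among genes of 10 FPKM or more, the upper bound lay at the median 44.1% above the value in double-deficient embryos and 45.1% above it in wildtype embryos. Bounds of this width part only when the values differ by about 2.6-fold (2.58-fold at the width in double-deficient embryos and 2.64-fold at the width in wildtype embryos). At these widths smaller differences could not be counted as changed by the rule used here. A gene that was not counted as changed is not thereby shown to be equal in the groups.

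Of the genes past 2-fold, *zgc:173585* was the farthest above wildtype. It had 24.6 FPKM (bounds 8.40 to 40.7) in double-deficient embryos, against 5.69 FPKM (1.56 to 9.82) in wildtype embryos, a log2 ratio of 1.93. Its locus of 592 bp lies on chromosome 25 (34630718 to 34631309) near histone genes, of which *hist1h4l* had 4.34 FPKM in double-deficient and 1.99 FPKM in wildtype embryos, and *hist2h3c* 14.9 FPKM in double-deficient and 9.17 FPKM in wildtype embryos. These had the highest ratios among the genes nearby. Others lay the other way, such as *zgc:162611* with 3.70 FPKM in double-deficient and 4.01 FPKM in wildtype embryos. Of the 17 histone genes kept, 10 lay above the median of all genes and 7 below. Histone genes occur in near-identical copies, so reads can be split between them and these values are uncertain. Across the other groups *zgc:173585* ranged widely, with 17.3 FPKM at 18 hpf when only Tbx5a was targeted and 3.22 FPKM when only Tbx5b was. At 21 hpf it had 4.80 FPKM in double-deficient, 32.3 FPKM in Tbx5a-deficient, 8.16 FPKM in Tbx5b-deficient and 6.78 FPKM in wildtype embryos. The other gene, *c9*, encodes a component of the complement pore that is made mainly by the liver. It had 21.0 FPKM (9.25 to 32.8) in double-deficient embryos, against 9.27 FPKM (3.83 to 14.7) in wildtype embryos, and at 21 hpf it was again higher, 32.9 FPKM in double-deficient against 20.4 FPKM in wildtype embryos.

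The small heat shock proteins *hspb9* and *hspb11*, chaperones that hold unfolded proteins, were both past 2-fold on the lower side. *hspb9* (chromosome 3, 33168824 to 33169482) had 16.2 FPKM (7.04 to 25.3) in double-deficient embryos, against 44.7 FPKM (14.9 to 74.4) in wildtype embryos, a log2 ratio of -1.41. *hspb11* (chromosome 21, 20347319 to 20348242) had 16.2 FPKM (7.81 to 24.7) in double-deficient embryos, against 39.4 FPKM (13.5 to 65.4) in wildtype embryos, a ratio of -1.23. The list of heat shock and chaperone genes held 41 members, of which 25 lay above and 16 below the median of all genes, and no other member was past 1.5-fold. Outside this list, *si:dkey-4p15.3*, which has the RefSeq symbol *hspa8b*, was past 1.5-fold higher, with a log2 ratio of 0.62. The list also held members on the higher side. Its member *tcp1*, a subunit of the cytosolic chaperonin, had 552 FPKM in double-deficient and 401 FPKM in wildtype embryos. At 21 hpf *hspb9* had 61.8 FPKM in double-deficient and 51.9 FPKM in wildtype embryos, so the lower value was not seen there.

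Short of 2-fold, 8 more genes made up the 10 highest ratios among genes of 10 FPKM or more. *zgc:92791* had 16.2 FPKM in double-deficient and 9.16 FPKM in wildtype embryos, *rab3gap1*, a subunit of the Rab3 GTPase activating complex, had 16.5 FPKM in double-deficient and 9.56 FPKM in wildtype embryos, and *slc35a1*, the CMP-sialic acid transporter of the Golgi, had 40.0 FPKM in double-deficient and 24.3 FPKM in wildtype embryos. The log2 ratios of *rfesd*, *hyi*, *iars*, *zgc:158766* and *zgc:56039* lay between 0.66 and 0.71.

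*bnip4*, a relative of the BNIP3 family of mitochondrial cell death proteins, had 17.7 FPKM (8.11 to 27.4) in double-deficient embryos, against 41.7 FPKM (19.6 to 63.8) in wildtype embryos. It was lower at 21 hpf as well, with 19.8 FPKM in double-deficient and 27.9 FPKM in wildtype embryos. *wu:fc46h12* had 7.47 FPKM (2.76 to 12.2) in double-deficient embryos, against 18.6 FPKM (5.74 to 31.5) in wildtype embryos. At 21 hpf it lay the other way, with 74.2 FPKM in double-deficient and 63.9 FPKM in wildtype embryos. *cox6b1*, a subunit of cytochrome c oxidase, had 13.0 FPKM in double-deficient and 30.7 FPKM in wildtype embryos, but its bounds began at 0 in both groups, and the locus listed for it, of 1498818 bp, is shared by 14 genes. Its value is therefore uncertain. At lower levels, the immune-type receptor *nitr8* had 0.615 FPKM (0 to 1.24) in double-deficient embryos, against 3.64 FPKM (0.765 to 6.52) in wildtype embryos, and was lower at 21 hpf too, with 0.719 FPKM in double-deficient and 2.96 FPKM in wildtype embryos. *lect2l*, which resembles a chemotactic factor of leukocytes, had 1.60 FPKM (0.130 to 3.06) in double-deficient embryos, against 4.90 FPKM (0.814 to 8.99) in wildtype embryos. It was not lower at 21 hpf, with 6.44 FPKM in double-deficient and 5.37 FPKM in wildtype embryos. The other 3 genes past 2-fold were a clock gene and a pair of muscle genes, described with their groups. The plot of the 12 genes with their bounds shows that every pair overlapped, narrowly for *per3*.

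**Figure D2:**
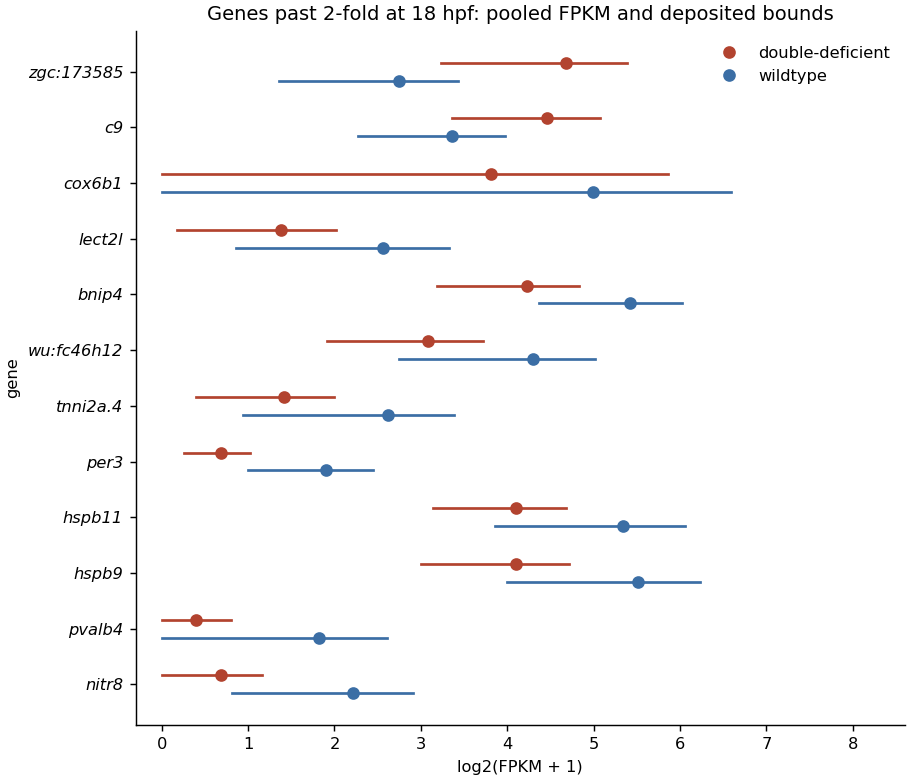
Log2(FPKM + 1) (horizontal axis) of the 12 genes past 2-fold at 18 hpf, double-deficient embryos above and wildtype embryos below in each row; points are the pooled values and lines run between the deposited bounds. The bounds of the groups overlap in all 12 rows.

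Neither targeted gene differed by much in RNA. *tbx5a* had 1.54 FPKM (0.475 to 2.61) in double-deficient embryos, against 1.61 FPKM (0.390 to 2.82) in wildtype embryos. *tbx5b* was listed at 0.148 FPKM in double-deficient and 0.0699 FPKM in wildtype embryos, under the minimum of 1 FPKM in both, and is not a member. A morpholino need not lower the level of its transcript, so these values do not check the labels. Of 18 genes that the study selected by in situ hybridization, a list chosen on these samples and so not independent of them, 17 were members, 9 above and 8 below the median of all genes. With 1 FPKM added, *cox6b1* alone was past 2-fold. The nearest was *ndufa4*, which encodes a protein of the respiratory chain, with 12.2 FPKM (5.83 to 18.7) in double-deficient embryos, against 25.4 FPKM (13.4 to 37.4) in wildtype embryos, a log2 ratio of -0.996 that falls just short of the threshold, although without the added 1 FPKM the value in double-deficient embryos was 0.482 of that in wildtype. By Cuffdiff on the triplicate libraries, the paper found *ndufa4* significantly lower in double-deficient than in wildtype embryos. That test was not repeated here. By in situ hybridization the paper saw the opposite, increased *ndufa4* expression in double-deficient embryos of the same stage. The more abundant relative of this gene, *ndufa4l*, had 886 FPKM in double-deficient and 835 FPKM in wildtype embryos. The endothelial transcription factor genes *sox7* and *hhex* were on the higher side. *sox7* had 8.44 FPKM in double-deficient and 6.12 FPKM in wildtype embryos, and *hhex* 19.0 FPKM in double-deficient and 15.26 FPKM in wildtype embryos. For *sox7* the in situ result of the paper goes the other way, with apparently fewer expressing cells in double-deficient embryos of the same stage. For *hhex* the paper describes scattered expression in double-deficient embryos at 21 hpf, and reads it with *sox7* as downregulation and misexpression of vascular precursors. At that stage *hhex* was lower, with 11.3 FPKM in double-deficient and 24.6 FPKM in wildtype embryos, a log2 ratio of -1.05. *si:dkey-4p15.3* had 8.15 FPKM in double-deficient and 4.96 FPKM in wildtype embryos. On the side of the paper's in situ results at 18 hpf, *si:dkey-204l11.1* was lower (7.92 FPKM in double-deficient and 12.4 FPKM in wildtype embryos). *hsp90aa1.2* was higher on both measures (89.9 FPKM in double-deficient and 73.2 FPKM in wildtype embryos). *phlda2*, strongly lost in situ in double-deficient embryos, had 47.2 FPKM in them and 47.5 FPKM in wildtype embryos. Staining of *cox6b1* was expanded in situ in double-deficient embryos, opposite to its lower value here.

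Gene lists were described by the median log2 ratio of their members minus that of all 10517 genes, which is called the relative median below, and by how many members lay above and below the median of all genes. Of the 45 lists with at least 5 members, 12 had a relative median of 0.1 or more and 2 one of -0.1 or less, and the range was -0.21 to 0.18. A list median carries no test here, since the groups have 1 pooled value each.

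**Figure D3:**
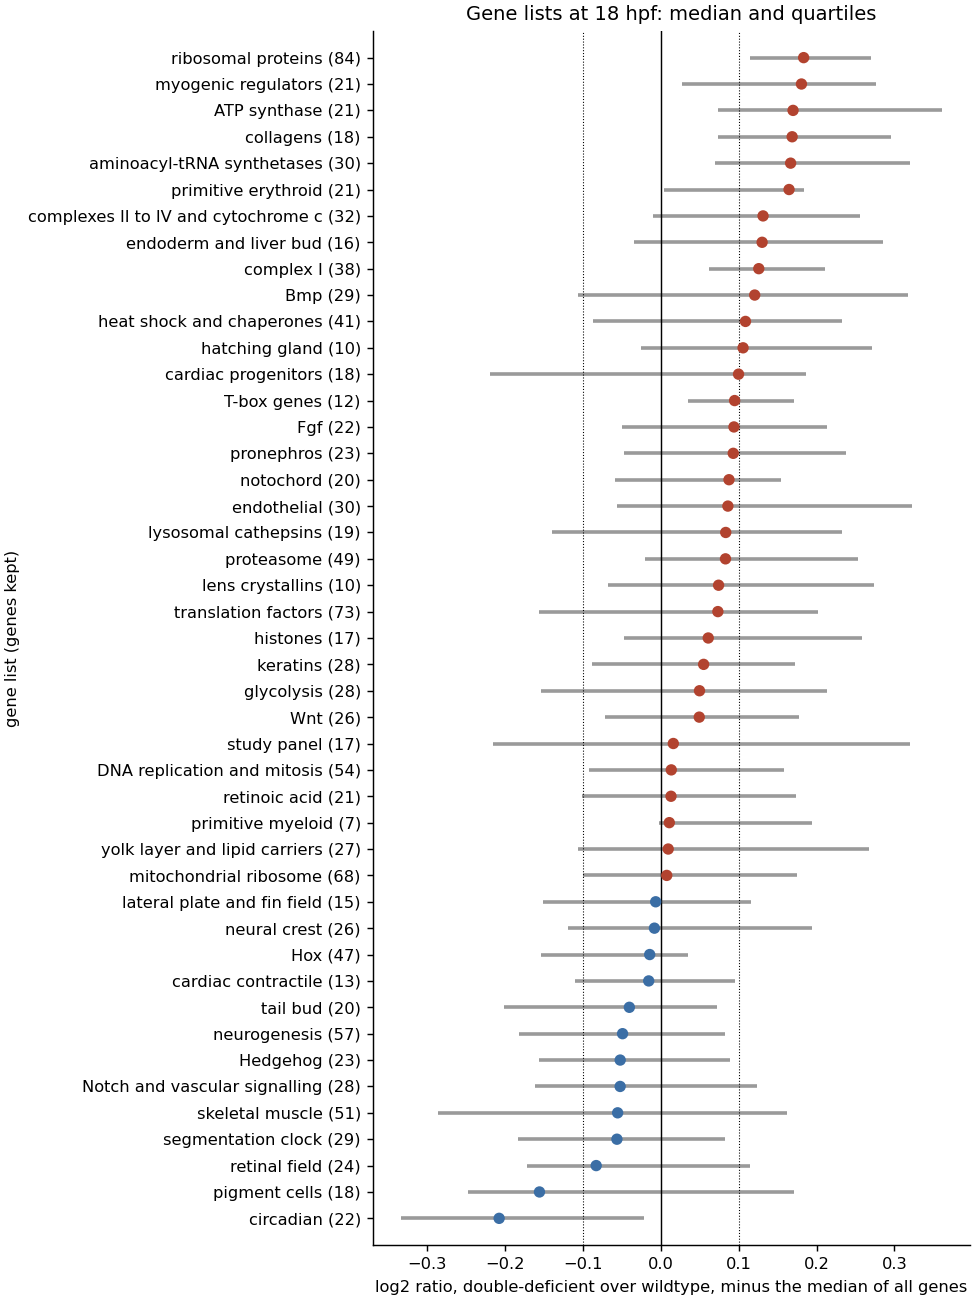
Relative median (points) and quartiles (lines) of the log2 ratio of double-deficient over wildtype embryos for 45 gene lists at 18 hpf, with the number of members in brackets; dotted lines mark 0.1 in either direction. Ribosomal proteins and myogenic regulators stand at the upper end and circadian genes at the lower end.

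Lists of genes of the heart and fin fields, where Tbx5 acts, had medians close to that of all genes in RNA of whole embryos. The paper describes the lateral plate mesoderm as a small tissue at these stages, so these values say little about changes confined to it. The list of cardiac progenitor genes had a relative median of 0.0997, just under 0.1, with 12 of 18 members above the median of all genes and 6 below. *gata4*, a zinc finger regulator of the early heart, was its one member past 1.5-fold, with 2.22 FPKM (0.549 to 3.89) in double-deficient embryos, against 4.03 FPKM (0.967 to 7.09) in wildtype embryos. *hand2*, which is needed for the ventricle and the fin bud, had 14.5 FPKM in double-deficient and 18.6 FPKM in wildtype embryos. *nkx2.5*, a homeobox gene of cardiac progenitors, lay the other way, with 4.78 FPKM in double-deficient and 3.68 FPKM in wildtype embryos, while *gata5* had 31.4 FPKM in double-deficient and 29.1 FPKM in wildtype embryos. The 13 cardiac contractile genes had a relative median of -0.02, and *myl7*, the light chain of cardiac myosin, had 26.5 FPKM in double-deficient and 29.2 FPKM in wildtype embryos. In the list of lateral plate and fin field genes 7 of 15 members lay above and 8 below (relative median -0.01). *fgf24*, which signals in the fin field, had 1.18 FPKM in double-deficient and 0.909 FPKM in wildtype embryos, while *fgf10a* had 3.43 FPKM in double-deficient and 4.24 FPKM in wildtype embryos. *aldh1a2*, the enzyme that makes retinoic acid for the fin field, had 36.7 FPKM in double-deficient and 27.6 FPKM in wildtype embryos. None of these differences parted the bounds, and in RNA of whole embryos fewer cells of a type and less RNA per cell cannot be told apart. Among 12 T-box genes kept, 9 lay above and 3 below the median of all genes (relative median 0.09), the highest ratio being that of *tbx6l* with 15.33 FPKM in double-deficient and 11.12 FPKM in wildtype embryos.

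Muscle genes did not lie on one side. Skeletal muscle forms in the somites, where myogenic regulators such as *myf5* and *myod1* act first and the proteins of the contractile fibre follow. Of 21 myogenic regulators 19 lay above the median of all genes and 2 below, with a relative median of 0.18. *myf5* had 45.6 FPKM in double-deficient and 34.2 FPKM in wildtype embryos, *myog* had 199 FPKM in double-deficient and 164 FPKM in wildtype embryos, and *smyd1b*, a methyltransferase needed for myofibrils, had 172 FPKM in double-deficient and 124 FPKM in wildtype embryos. *myod1* lay the other way, with 53.2 FPKM in double-deficient and 63.5 FPKM in wildtype embryos. Of these, *smyd1b* lies within 1 Mb of a chromosome end, where ratios ran high.

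The list of skeletal muscle genes had a relative median of -0.06, with 22 of 51 members above and 29 below, and 6 members past 1.5-fold, all of them lower. These were genes of differentiated muscle, most of them of fast fibres. *pvalb4*, a parvalbumin that binds calcium, had 0.320 FPKM (0 to 0.748) in double-deficient embryos, against 2.54 FPKM (0 to 5.12) in wildtype embryos. *tnni2a.4*, a fast troponin I, had 1.66 FPKM (0.317 to 3.001) in double-deficient embryos, against 5.16 FPKM (0.914 to 9.41) in wildtype embryos. *mylpfb*, a fast myosin light chain, had 6.66 FPKM (2.25 to 11.06) in double-deficient embryos, against 13.7 FPKM (3.57 to 23.7) in wildtype embryos. The troponin T genes *tnnt3a* and *tnnt3b* and the Z-disc gene *myoz1b* had log2 ratios of -0.79, -0.72 and -0.61. Both single-deficient groups at 18 hpf also lay below wildtype in all 6 genes. For *tnni2a.4* they had 1.89 FPKM (Tbx5a-deficient) and 1.66 FPKM (Tbx5b-deficient). Of the 51 members 4, *pvalb4* and *myoz1b* among them, reached the minimum of 1 FPKM in wildtype embryos only. In double-deficient embryos only, 1 member reached it. Over all genes these numbers were 182 and 109. Abundant muscle genes lay on both sides. Of the 15 members of 100 FPKM or more 7 lay above the median of all genes and 8 below. *acta1a*, a skeletal actin, had 583 FPKM in double-deficient and 427 FPKM in wildtype embryos, and *actc1b* had 1522 FPKM in double-deficient and 1224 FPKM in wildtype embryos. On the other side, the fast troponin gene *tnni2b.1* had 582 FPKM in double-deficient and 702 FPKM in wildtype embryos, and *mylpfa*, a fast myosin light chain, had 299.6 FPKM in double-deficient and 384 FPKM in wildtype embryos.

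These 6 genes stood higher at 21 hpf in all groups, and there double-deficient embryos had the larger values compared with wildtype. *tnni2a.4* reached 88.0 FPKM in double-deficient and 46.7 FPKM in wildtype embryos at 21 hpf, and *mylpfb* reached 134 FPKM in double-deficient and 70.6 FPKM in wildtype embryos. Members at least 2-fold higher at 21 than at 18 hpf in both single-deficient groups, which enter neither side of the double-deficient comparison, were taken as a list. Of the 71 such genes 55 lay below the median of all genes at 18 hpf and 16 above, with a relative median of -0.24, and 13 were past 1.5-fold lower and 1 higher. Choice by a rise from 18 hpf in injected embryos favours genes that were low at 18 hpf in all injected groups. The negative relative median is therefore not independent of how the list was chosen. Of the 71 genes 7 reached the minimum of 1 FPKM in wildtype embryos only, *pvalb4* and *per3* among them, and 1 in double-deficient embryos only, which weighs toward lower ratios. When the minimum was set instead on the single-deficient groups at 18 hpf, 66 genes had a relative median of -0.23. Without the 16 genes that are also in the skeletal muscle list, 39 of 55 lay below (relative median -0.21), but these 55 still held genes of muscle such as *tnni1al*, a troponin I with 4.86 FPKM in double-deficient and 9.86 FPKM in wildtype embryos. At 21 hpf the relative median of the 71 genes between double-deficient and wildtype embryos was 0.32. The choice of group matters, since with the list taken from Tbx5b-deficient embryos alone (121 genes) the relative median at 18 hpf was -0.06. Only 4 members were at least 2-fold lower at 21 hpf in both groups, and 2 of them lay on each side. Whether the pools of a group differed in exact age was not tested.

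**Figure D4:**
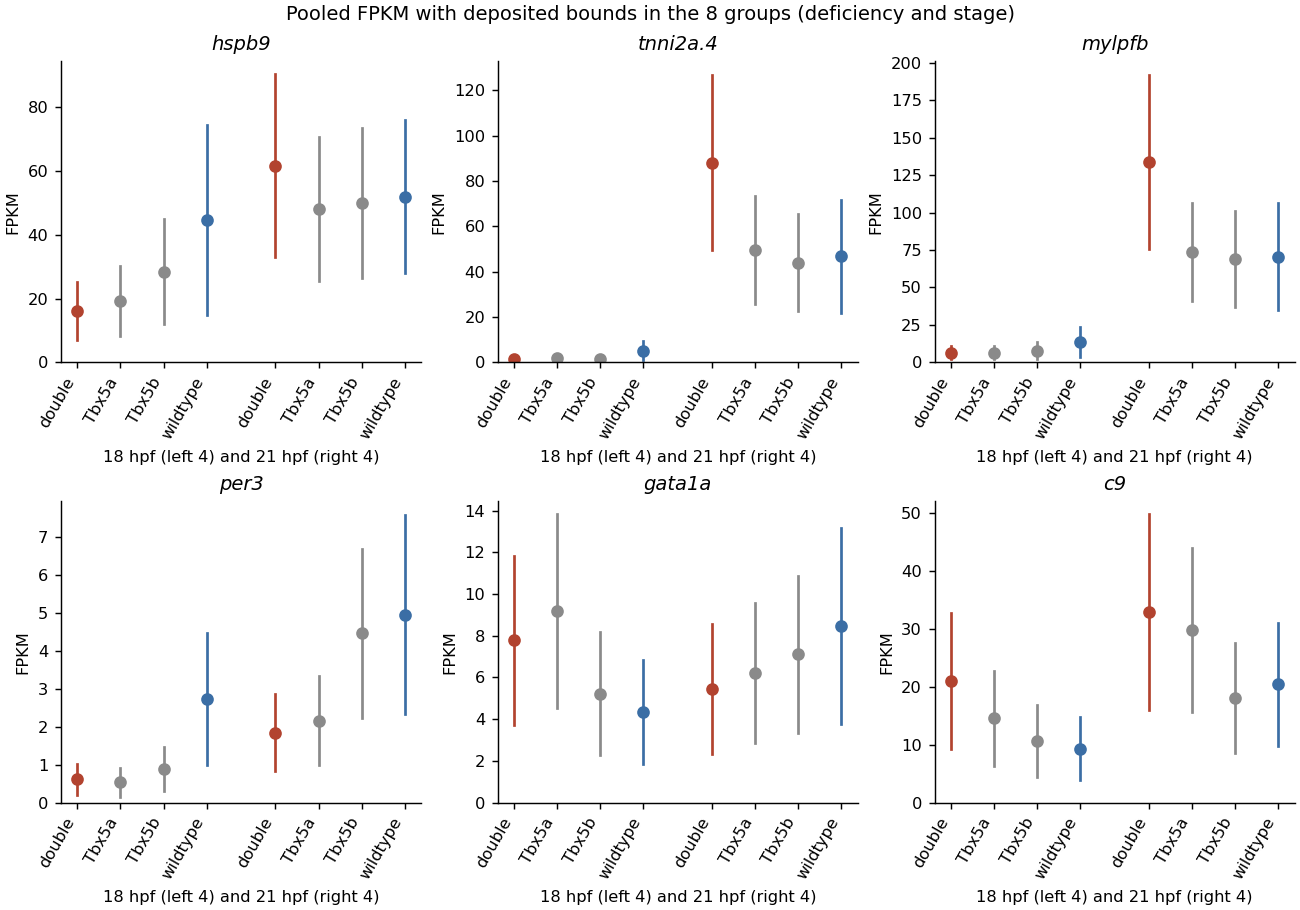
Pooled FPKM (points) and deposited bounds (lines) of 6 genes in the 8 groups, with double-deficient, Tbx5a-deficient, Tbx5b-deficient and wildtype embryos from left to right within each stage. *hspb9*, *tnni2a.4* and *mylpfb* are lower than wildtype in double-deficient embryos at 18 hpf and higher at 21 hpf, *per3* is lower and *c9* higher at both stages, and *gata1a* is higher at 18 hpf and lower at 21 hpf.

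The circadian list had a relative median of -0.21, with 18 of 22 members below the median of all genes and 4 above. Its genes make the feedback loop in which Clock and Bmal factors activate period and cryptochrome genes, whose products repress them. The period gene *per3* (chromosome 11, 39694918 to 39750673) had 0.610 FPKM (0.194 to 1.03) in double-deficient embryos, against 2.74 FPKM (1.004 to 4.47) in wildtype embryos, a log2 ratio of -1.21. *per1b* had 0.741 FPKM (0.202 to 1.28) in double-deficient embryos, against 2.19 FPKM (0.940 to 3.43) in wildtype embryos, a ratio of -0.87. The cryptochrome gene *cry1a* had 1.94 FPKM in double-deficient and 3.07 FPKM in wildtype embryos, and *tefa*, a clock output factor, had 17.3 FPKM in double-deficient and 23.1 FPKM in wildtype embryos. *cry4* lay the other way, with 19.9 FPKM in double-deficient and 15.35 FPKM in wildtype embryos. The value of the list depended on the filter. With a minimum of 5 FPKM in either group its relative median was -0.08 and with no minimum -0.07, nearer to 0 than that of pigment cell genes in both cases. Of its 22 members 4, *per3* and *per1b* among them, reached 1 FPKM in wildtype embryos only, and none in double-deficient embryos only. With the minimum set on the single-deficient groups the relative median was -0.20. At 18 hpf the list stood at -0.08 when only Tbx5a was targeted and at -0.03 when only Tbx5b was, in groups that share the wildtype values with the double-deficient comparison, and at 21 hpf it stood on the other side in double-deficient embryos, at 0.12. The single-deficient groups had 0.543 FPKM of *per3* (Tbx5a-deficient) and 0.892 FPKM (Tbx5b-deficient), so wildtype was the highest of the 4 groups. At 21 hpf *per3* itself was again lower, with 1.84 FPKM in double-deficient and 4.96 FPKM in wildtype embryos. The times of day at which the pools were collected are not given in the sources used here.

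Genes of the first red blood cells, which arise from the intermediate mesoderm under *gata1a* and *tal1*, had a relative median of 0.16, with 16 of 21 above the median of all genes and 5 below. The 2 members past 1.5-fold, *gata1a* and *slc4a1a*, were both higher. *gata1a* had 7.79 FPKM (3.74 to 11.8) in double-deficient embryos, against 4.35 FPKM (1.83 to 6.86) in wildtype embryos, and *slc4a1a*, the anion exchanger of the red cell membrane, had 3.40 FPKM (1.52 to 5.28) in double-deficient embryos, against 1.68 FPKM (0.646 to 2.72) in wildtype embryos. *alas2*, the first enzyme of haem synthesis in red cells, had 21.5 FPKM in double-deficient and 14.7 FPKM in wildtype embryos. The abundant globins did not follow. *hbbe3* had 1338 FPKM in double-deficient and 1452 FPKM in wildtype embryos, and *hbae3* had 531 FPKM in double-deficient and 540 FPKM in wildtype embryos, with the caution that globin genes are similar in sequence. At 21 hpf *gata1a* was lower, 5.44 FPKM in double-deficient against 8.47 FPKM in wildtype embryos, whereas *slc4a1a* was still higher, 11.8 FPKM in double-deficient against 7.04 FPKM in wildtype embryos. Of 30 endothelial genes 18 lay above and 12 below (relative median 0.09), and *aplnrb*, a receptor of the apelin pathway, had 23.1 FPKM in double-deficient and 17.2 FPKM in wildtype embryos. The endothelium markers *cdh5* and *kdrl* lay slightly the other way. *cdh5* had 1.80 FPKM in double-deficient and 1.92 FPKM in wildtype embryos, and *kdrl* 1.84 FPKM in double-deficient and 2.02 FPKM in wildtype embryos.

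Among signalling lists Bmp genes were the farthest from all genes, with 20 of 29 members above and 9 below (relative median 0.12). Its highest ratios were those of secreted factors that shape the early Bmp gradient. *chd*, which encodes the Bmp antagonist Chordin, had 5.49 FPKM (2.78 to 8.19) in double-deficient embryos, against 2.48 FPKM (1.08 to 3.88) in wildtype embryos, and *szl*, which encodes Sizzled, had 1.58 FPKM in double-deficient and 0.747 FPKM in wildtype embryos. Chordin was also above wildtype in the single-deficient groups, with 4.77 FPKM of *chd* when Tbx5a was targeted and 3.28 FPKM when Tbx5b was, and by 21 hpf all 4 groups stood between 1.02 and 1.38 FPKM. The inhibitory Smad genes *smad6* and *smad7* were on the same side, *smad6* with 17.7 FPKM in double-deficient and 13.9 FPKM in wildtype embryos and *smad7* with 20.4 FPKM in double-deficient and 15.96 FPKM in wildtype embryos. *szl* reached the minimum of 1 FPKM in double-deficient embryos only. *chd* lies close to a chromosome end, at 1.09 Mb, and *szl* lies within 1 Mb of one. Of 22 Fgf genes 14 lay above and 8 below (relative median 0.09). The feedback inhibitor *spry1* had 9.93 FPKM in double-deficient and 6.25 FPKM in wildtype embryos, and the Fgf target *etv4* had 57.2 FPKM in double-deficient and 38.9 FPKM in wildtype embryos, whereas *dusp6*, another target, had 65.6 FPKM in double-deficient and 69.4 FPKM in wildtype embryos and the ligand *fgf8a* 13.3 FPKM in double-deficient and 17.2 FPKM in wildtype embryos. Wnt (0.05), Hedgehog (-0.05), retinoic acid (0.01), Notch and vascular signalling (-0.05) and segmentation clock genes (-0.06) had relative medians close to 0, and none of their members was past 1.5-fold. The 47 Hox genes kept had a relative median of -0.01, with 20 above and 27 below.

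Several lists of the machinery of translation and respiration were on the higher side, but not all. Of 84 ribosomal protein genes 78 lay above the median of all genes and 6 below, with a relative median of 0.18, and none was past 1.5-fold. *rplp0*, the stalk protein of the large subunit, had 9036 FPKM in double-deficient and 6494 FPKM in wildtype embryos, while *rps24* had 6096 FPKM in double-deficient and 6680.1 FPKM in wildtype embryos. The genes together made up 564786 of 1164860 FPKM in double-deficient embryos and 502798 of 1073540 FPKM in wildtype embryos. ATP synthase subunits (19 of 21 above, relative median 0.17), complex I (32 of 38 above, 0.13) and complexes II to IV with cytochrome c (23 of 32 above, 0.13) were on the same side, as were aminoacyl-tRNA synthetases (24 of 30 above, 0.17), led by *iars* with 58.0 FPKM in double-deficient and 36.1 FPKM in wildtype embryos. Translation factors (44 of 73 above, 0.07) and mitochondrial ribosomal proteins (36 of 68 above, 0.01) lay closer to all genes. At 21 hpf the relative medians of these lists between double-deficient and wildtype embryos were negative, -0.56 for ribosomal proteins, -0.37 for ATP synthase, -0.32 for complex I and -0.08 for aminoacyl-tRNA synthetases. Over all genes the ratio also rose with the level of expression. The median log2 ratio was -0.05 between 1 and 3 FPKM, 0.05 between 100 and 1000 FPKM and 0.15 in the 155 genes of 1000 FPKM or more, many of which are ribosomal protein genes. No aminoacyl-tRNA synthetase gene was in that highest class, since the largest value among them was 341 FPKM. The part of level in the list medians was not tested. When both groups were scaled to the same sum of FPKM, all ratios moved down by up to 0.12 and the median of all genes was -0.13, and the relative median of each list stayed within 0.1 of its value. Locus length went with smaller differences, with medians between -0.03 and 0.05 across classes from 300 bp to over 30000 bp.

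Pigment cell genes had a relative median of -0.16, with 12 of 18 members below and 6 above. Of these members 2, *dct* among them, reached the minimum of 1 FPKM in wildtype embryos only, and none in double-deficient embryos only. The 2 members of 100 FPKM or more, *gart* and *paics*, both lay above the median of all genes. *gch2*, which makes the pteridine precursors of yellow pigment cells, had 9.48 FPKM (4.73 to 14.2) in double-deficient embryos, against 16.5 FPKM (7.31 to 25.6) in wildtype embryos, and *trpm1b* had 9.81 FPKM in double-deficient and 15.5 FPKM in wildtype embryos. *sox10* and *foxd3*, which mark the neural crest from which these cells come, lay the other way, *sox10* with 19.4 FPKM in double-deficient and 17.3 FPKM in wildtype embryos and *foxd3* with 42.2 FPKM in double-deficient and 36.5 FPKM in wildtype embryos. *gch2*, *pmela*, *dct* and *slc45a2* are among the genes that were higher at 21 than at 18 hpf in both single-deficient groups. At 18 hpf *gch2* was low in these groups too, with 9.32 FPKM in Tbx5a-deficient and 10.1 FPKM in Tbx5b-deficient embryos.

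In the yolk layer and lipid carrier list 14 of 27 members lay above and 13 below (relative median 0.01), and the 3 past 1.5-fold were all lower. *fabp11a*, a fatty acid binding protein, had 41.9 FPKM in double-deficient and 72.5 FPKM in wildtype embryos, and *fabp7a*, which is found in radial glia, had 27.1 FPKM in double-deficient and 46.6 FPKM in wildtype embryos.

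Defining markers of the embryo's other tissues were summed. Among periderm markers *krt4* and *cyt1* were listed at 0 in both groups, so that the sum, 3290 FPKM in double-deficient and 3174 FPKM in wildtype embryos, is that of *krt5* alone. Hatching gland markers summed to 1885 FPKM in double-deficient and 1831 FPKM in wildtype embryos. Most of this came from *he1a* and *he1b*, whose listed locus is shared by 4 genes, and the bounds of *he1b* began at 0 in both groups. The third marker, *ctslb*, lay the other way, with 250 FPKM in double-deficient and 292 FPKM in wildtype embryos. Notochord markers summed to 95.6 FPKM in double-deficient and 90.1 FPKM in wildtype embryos. Only *col2a1a* was higher, with 41.7 FPKM in double-deficient and 34.2 FPKM in wildtype embryos, and *col8a1a* and *ta* lay slightly the other way. The neuron markers *elavl3* and *neurog1* summed to 45.8 FPKM in double-deficient and 58.0 FPKM in wildtype embryos. The wider neurogenesis list summed the other way, to 4003 FPKM in double-deficient and 3657 FPKM in wildtype embryos. Of its 57 members 23 lay above and 34 below the median of all genes (relative median -0.05). Its abundant member *tubb2b* had 1611 FPKM in double-deficient and 1136 FPKM in wildtype embryos. The eyes had been removed, and retina markers summed to 3.58 FPKM in double-deficient and 4.21 FPKM in wildtype embryos. Lens markers summed to 13.3 FPKM in double-deficient and 8.45 FPKM in wildtype embryos, most of it from the crystallin *crygn2*, with 9.60 FPKM in double-deficient and 5.10 FPKM in wildtype embryos. Of 39 lens crystallin genes listed, 10 were members, 6 above and 4 below the median of all genes. The part of remaining eye tissue in these values was not tested.

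Position on the chromosome went with the ratio. Members within 1 Mb of the end of a chromosome, taken from the first base or the last position listed on it, had a median log2 ratio of 0.19 (740 genes, 78.5% above 0), against -0.06 for members 10 Mb or more from an end (6586 genes, 38.5% above 0). Medians fell off in between, with 0.09 at 1 to 2 Mb, 0.02 at 2 to 5 Mb and -0.02 at 5 to 10 Mb. The median within 1 Mb was the higher on each of the 25 chromosomes, by 0.10 to 0.39. The difference was present among scarce genes (under 10 FPKM, 0.11 within 1 Mb and -0.07 beyond 10 Mb) and among abundant ones (100 FPKM or more, 0.23 within 1 Mb and 0.03 beyond 10 Mb). Of the members past 1.5-fold on the higher side that lie on numbered chromosomes, 19 of 59, or 32.2%, lay within 1 Mb of an end, compared with 1 of 74 on the lower side and 7.10% of all members. Of the genes named above with higher values, *actc1b*, *rab3gap1*, *zgc:56039*, *szl*, *spry1*, *crygn2*, *cry4*, *smyd1b*, *gart* and *zgc:92791* lie within 1 Mb of an end, and *chd*, *iars*, *rplp0* and *hhex* at 1 to 2 Mb. The genes *gata4* and *pvalb4*, whose values were lower, also lie at 1 to 2 Mb, and *zgc:173585* and *c9* lie farther in, at 2.26 and 31.7 Mb.

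**Figure D5:**
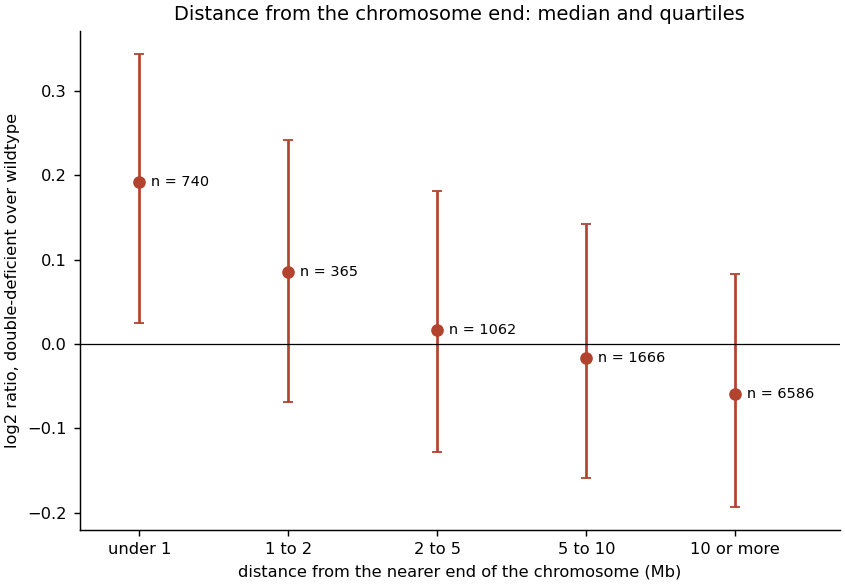
Median (points) and quartiles (bars) of the log2 ratio of double-deficient over wildtype embryos at 18 hpf by distance from the nearer chromosome end in Mb, with the number of genes. The median is 0.19 within 1 Mb and -0.06 at 10 Mb or more.

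This measure of position was chosen after the values had been seen. The other groups differed in it too, though not all in one direction. Within 1 Mb, Tbx5a-deficient embryos had a median log2 ratio of 0.14 and Tbx5b-deficient embryos one of -0.18 to the same wildtype values at 18 hpf. At 21 hpf the median was -0.19 with both genes targeted, -0.34 with *tbx5a* alone and -0.15 with *tbx5b* alone. Its part in the higher values of single genes was not tested. Without members within 2 Mb of an end, 14 lists had a relative median of 0.1 or more and 2 one of -0.1 or less. The ribosomal protein list then stood at 0.20, the myogenic regulators at 0.13 and the circadian list at -0.20. Medians still fell with distance beyond 2 Mb, and the part of position in the list medians was not tested.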

How the data were processed

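Members, gene lists and comparisons were chosen with earlier results of these data known. Single-end 50 bp reads were aligned by the authors with TopHat2 2.1.0 and Bowtie2 2.2.5.0, and Cufflinks and Cuffdiff gave the deposited FPKM values and their bounds, with the 3 libraries of a group combined. The submitters' notes list danRer10 (GRCz10) and the paper's methods Zv9, so the build of the positions is unsettled. Positions count from 1, after 1 was added to listed starts. Gene types were matched by name to RefSeq (14335 of 14648 genes). With pooled values no model could be fitted and no p-value was computed. Filters were 1 FPKM, 300 bp and messenger gene type, which removed 4078, 41 and 8 genes after 4 without usable values. One of those 8, the rRNA locus *zgc:158463*, had 944 FPKM in double-deficient and 364 FPKM in wildtype embryos. The call rule was tested on simulated data. Genes were named when past 2-fold, among the 10 highest or lowest ratios of 10 FPKM or more, targeted or followed in situ, or for each list past 2-fold or most abundant, and other list members were added after their values were seen. Python 3 with pandas and numpy was used. Preliminary experiment values were not used, and 1 list is not reported here.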

Additional observations from a re-analysis of the deposited data

How the results depend on the processing

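No paired analysis was possible because each group has 1 pooled value, and for the same reason no library could be left out. The count of changed genes was 0 under 8 of the alternatives. It was 1 (*per3*, lower) with both groups scaled to the same sum, 3 when the difference had only to exceed the root of the summed squared half-widths of the bounds (*zgc:173585* higher, *per3* and *nitr8* lower), and 3 without regard to gene type, all microRNA loci. The 12 genes past 2-fold became 51 (16 higher, 35 lower) with a pseudocount of 0.1, 67 (21 higher, 46 lower) with none and 134 at 1.5-fold (60 higher, 74 lower), against 8 to 16 under the others. The number of lists with a relative median of 0.1 or more either way was 14, and 10 to 19 under the alternatives. The relative median of genes higher at 21 hpf was -0.24, and -0.056 with the list taken from Tbx5b-deficient embryos alone. The difference by chromosome end, 0.25, ranged from 0.18 to 0.29. Of 138 named genes 22 had the other sign with the same sum, all close to 0. Alternatives without members near chromosome ends, without the muscle list without shared loci or with the minimum set on single-deficient embryos were added after seeing the data. The relative median of the circadian list, -0.21, was -0.084 at 5 FPKM and -0.075 with no minimum. Limits are the pooled values, the width of the bounds and the weight of the pseudocount on scarce genes.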
